A study of Mus musculus with 6 samples.

Results

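The genes described here encode secreted antagonists of Wnt signalling, namely the Dickkopf proteins Dkk1, Dkk2, Dkk3 and Dkk4, the secreted Frizzled-related proteins Sfrp1, Sfrp2, Sfrp4, Sfrp5 and Frzb, and the Wnt inhibitory factor Wif1. They were chosen by gene symbol among the array features that name exactly 1 gene, and all 10 were found, each with 1 feature, among 19938 genes in all.

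Expression was measured in pools of whole CD1 mouse embryos, CD1 being an outbred stock, that were taken at embryonic day 5.0 and cultured for 8 hours in narrow cavities of 90 µm diameter or in wide cavities of 180 µm diameter. Each cavity had 3 samples, numbered 1 to 3 as in their titles, and each sample held total RNA of 30 embryos hybridised to an Affymetrix Mouse Gene 1.0 ST array. The series addressed how embryos grown with and without external mechanical cues differ, and both groups were cultured outside the uterus, so neither is an uncultured embryo. All pools were of this outbred stock, and the labels give no genetic change. A pool of whole embryos measures epiblast, extraembryonic ectoderm and visceral endoderm together.

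Wnt ligands bind Frizzled receptors and the co-receptors Lrp5 and Lrp6, which stabilises β-catenin and switches on target genes through TCF and LEF factors. Dkk1, Dkk2 and Dkk4 bind Lrp5 and Lrp6, partly together with Kremen proteins, whereas secreted Frizzled-related proteins and Wif1 bind Wnt ligands themselves. In the mouse egg cylinder, Dkk1, Sfrp1 and Sfrp5 are known from the distal and anterior visceral endoderm, the cells that mark the future anterior side and restrict Wnt and Nodal signals in the neighbouring epiblast.

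Values were log2 signals as deposited, between 4.33 and 14.31, with array medians between 7.62 and 7.67. The deposited arrays thus had nearly equal distributions, and whether a normalization step made them so is not given in the sources used. The arrays numbered 1 stood apart in both cavities, at -10.6 for narrow 1 and -8.01 for wide 1 on the first principal component, which held 38.5% of the variance, against 2.76 to 5.87 for the other arrays. The labelled tissue was checked against markers: Utf1 of the epiblast averaged 12.44 ± 0.10 in narrow and 12.46 ± 0.12 in wide pools, Eomes of the extraembryonic ectoderm 12.37 ± 0.03 and 12.37 ± 0.03, and Cubn of the visceral endoderm 13.29 ± 0.02 and 13.31 ± 0.05 (SD, n = 3 each). Each of these lay at the 97.5th percentile of gene signals or higher, but each was named as the brightest marker of its list. Other markers of the same lists lay lower, such as Nanog at the 65.3th, Sox3 at the 71.8th and Ihh at the 65.9th percentile.

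Signals ranged widely among the antagonists. Since probes differ in brightness, signals of 2 genes do not compare amounts of RNA, but features near the array background carry little information, and 1027 olfactory receptor genes, mostly silent outside the nose, served as a description of dim features. Their mean signals had a median of 5.42 and a 95th percentile of 6.79. Sfrp1, Dkk1, Sfrp2, Sfrp5 and Frzb lay above the median gene signal, at means of 11.68, 11.01, 9.81, 9.74 and 8.16 over the 6 arrays, and above at least 99.7% of olfactory receptor genes. Dkk4 at 7.12, Dkk2 at 6.93, Dkk3 at 6.91 and Wif1 at 6.81 lay in the lower part of the gene signals, just above that 95th percentile. Sfrp4 at 5.63 lay below it, above 60.9% of olfactory receptor genes, so its signal could not be told from that of dim features.

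**Figure D1:**
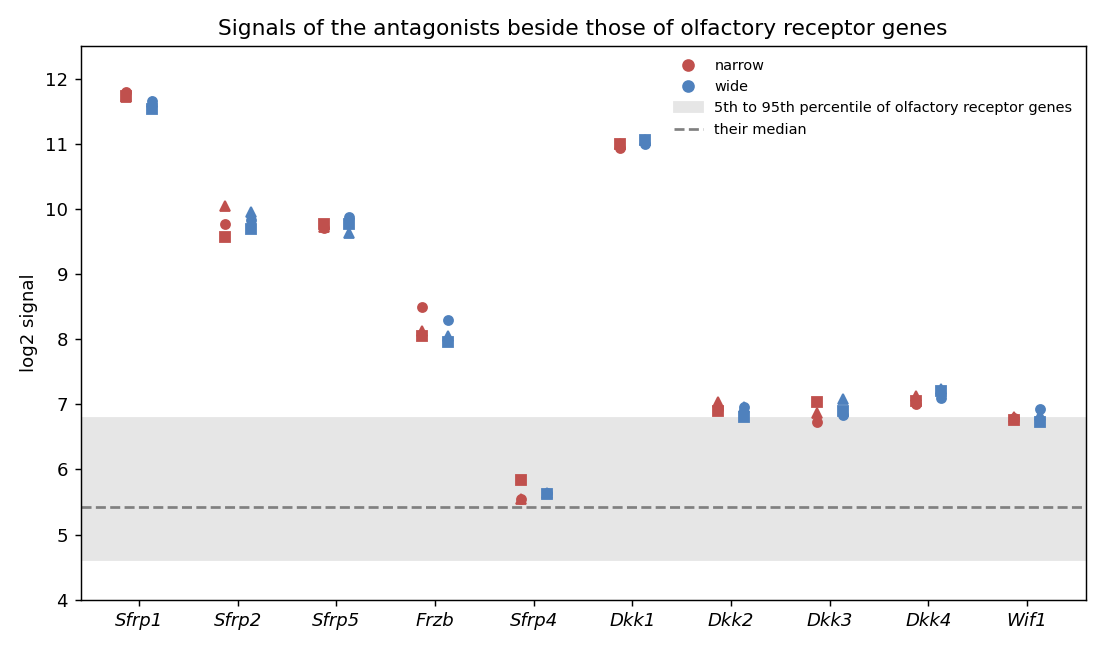
Log2 signal (vertical axis) of each antagonist in the 3 narrow and 3 wide pools, with marker shapes for the replicate numbers. The grey band runs from the 5th to the 95th percentile of mean signals of 1027 olfactory receptor genes and the dashed line is their median of 5.42. Sfrp4 lies inside the band, and Dkk2, Dkk3, Dkk4 and Wif1 lie close to its upper edge of 6.79.

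Between cavities the antagonists differed little. Differences, narrow minus wide, were positive for 4 and negative for 6 of the 10, with a median of -0.031 on the log2 scale beside 0.001 over all genes, and their sizes ran from 0.015 to 0.142. By limma with Benjamini-Hochberg adjustment over all genes, 0 of the 10 passed the threshold of 0.05, as did 0 of all 19938 genes (0%), and adjusted p was 1.00 for each of the 10. At an unadjusted p under 0.05, 1 antagonist, Sfrp1, was higher in narrow pools and 0 were lower, where 1.68% of all genes were higher and 1.72% lower at that level. The narrow and wide values did not overlap for the same 1 gene, which was higher in narrow pools, beside 4.17% of all genes that were higher and 3.54% that were lower without overlap.

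Sfrp1, which binds Wnt ligands and Frizzled receptors, had log2 signals of 11.80, 11.73 and 11.72 in narrow pools, against 11.66, 11.53 and 11.64 in wide pools. All narrow pools lay above all wide pools, although the lowest narrow value exceeded the highest wide value by less than the wide pools differed among themselves. Sfrp1 averaged 11.75 ± 0.04 in narrow and 11.61 ± 0.07 in wide pools (SD, n = 3 each). The difference was 0.14 ± 0.05 (SE), a ratio of 1.10 with a 95% interval from 1.02 to 1.19 (limma, unadjusted p = 0.0218, adjusted p = 1.00). An exact two-sided permutation test of the 6 pools gave p = 0.1, the smallest value that 3 against 3 samples allow. The limma p lost its place under 0.05 without narrow 1 (difference 0.12, unadjusted p = 0.0664) or without wide 2 (0.10, unadjusted p = 0.0828). With the replicate number as a block, unadjusted p was 0.0118 and adjusted p = 0.674.

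Markers of the distal visceral endoderm were measured beside Sfrp1. Dkk1 and Sfrp5, antagonists also known from that tissue, had negative differences, at -0.06 ± 0.04 and -0.03 ± 0.06 (SE). Of 10 distal visceral endoderm markers, a list without the antagonists and chosen with results of these data known, 8 had positive differences. At an unadjusted p under 0.05, 5 were higher and 0 lower, where 1.68% of all genes were higher and 1.72% lower. By limma, 0 passed after adjustment over all genes. The mean signal of the list was 9.22 to 9.37 in narrow pools and 9.05 to 9.16 in wide pools. The 5 were Cer1 (0.70 ± 0.13), Fzd8 (0.33 ± 0.08), Fzd5 (0.32 ± 0.07), Lefty1 (0.31 ± 0.05) and Lhx1 (0.145 ± 0.047), each with adjusted p = 1.00 by limma. The others were Foxa2 at 0.13 ± 0.06, Hhex at 0.030 ± 0.075, Otx2 at 0.03 ± 0.11, Gsc at -0.02 ± 0.06 and Hesx1 at -0.09 ± 0.17. Lefty1, with a mean of 7.28 over the 6 arrays, was nearly as dim as Dkk4 at 7.12. This limits what the Lefty1 difference says about RNA. The part of these markers in the Sfrp1 difference was not tested, and fewer cells of a type cannot be told apart from less RNA per cell in pools of whole embryos. General visceral endoderm markers overlapped, at 11.64 to 11.69 in narrow and 11.63 to 11.66 in wide pools over 15 genes. Of these, 1 was higher at an unadjusted p under 0.05 and 0 were lower. It was Trf (0.179 ± 0.048, limma unadjusted p = 0.00573), without overlap between cavities. Epiblast markers had 9 of 10 differences negative, at 11.07 to 11.14 in narrow and 11.14 to 11.15 in wide pools, and 0 reached that level. Extraembryonic ectoderm markers had 7 of 10 negative, at 11.29 to 11.36 in narrow and 11.35 to 11.38 in wide pools. Of these, 2 were lower at that level and 0 higher. They were Esrrb (-0.222 ± 0.045, limma unadjusted p = 0.00107) and Bmp4 (-0.207 ± 0.077, unadjusted p = 0.0265), both without overlap between cavities. Markers of other cells overlapped between cavities, at 10.89 to 10.95 in narrow and 10.89 to 10.93 in wide pools for 8 of parietal endoderm, and at 8.83 to 8.92 and 8.76 to 8.84 for 5 of trophoblast giant cells and ectoplacental cone, of which 5 had positive differences and 0 an unadjusted p under 0.05. The 8 of decidua and stroma lay at 7.60 to 7.64 in narrow and 7.60 to 7.65 in wide pools, and the 5 measured ones of blood cells at 6.72 to 6.85 and 6.74 to 7.04. Of the parietal endoderm, decidua and stroma, and blood cell markers, 0 reached that level. These marker counts were made without a block. With pools blocked by replicate number, 6 distal visceral endoderm, 2 general visceral endoderm and 1 parietal endoderm markers were higher at that level and 0 lower. Lower with the block were 4 extraembryonic ectoderm markers and 1 epiblast marker, with 0 higher. In the remaining lists 0 reached that level with the block. Over all genes 3.54% were higher and 3.72% lower with it. In every marker list, 0 passed after adjustment by limma, with or without the block.

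Dkk1, the Lrp5 and Lrp6 inhibitor needed for head formation, had signals of 10.94, 10.99 and 11.00 in narrow pools, against 10.99, 11.06 and 11.05 in wide pools. The groups overlapped at their edges, and each narrow pool lay below the wide pool of the same number, by 0.05, 0.07 and 0.06. Dkk1 was measured tightly, with averages of 10.98 ± 0.03 in narrow and 11.03 ± 0.04 in wide pools (SD, n = 3 each), and the difference of -0.06 ± 0.04 (SE) did not pass (limma, unadjusted p = 0.201). Its 95% interval bounds the narrow to wide ratio between 0.897 and 1.03.

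Sfrp5, a close relative of Sfrp1 that is also known from the distal visceral endoderm, had signals of 9.70, 9.76 and 9.72 in narrow pools, against 9.88, 9.76 and 9.63 in wide pools. Narrow pools lay within the range of the wide ones. The difference of -0.03 ± 0.06 (limma, unadjusted p = 0.647) had a 95% interval from 0.886 to 1.08 as a ratio. Whether Sfrp1, Sfrp5 and Dkk1 differ from one another in their response was not tested.

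Sfrp2, the third relative in the subfamily of Sfrp1 and Sfrp5, varied more among pools than between cavities. Its signals were 9.76, 9.56 and 10.05 in narrow pools, against 9.83, 9.69 and 9.95 in wide pools. Pools numbered 3 were highest and pools numbered 2 lowest in both cavities. The difference was -0.03 ± 0.12 (limma, unadjusted p = 0.794), with a 95% interval of the ratio from 0.807 to 1.18.

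Frzb, a Wnt-binding protein also called Sfrp3, followed the replicate number too, in another order. Its signals were 8.49, 8.05 and 8.13 in narrow pools, against 8.29, 7.95 and 8.04 in wide pools, so that number 1 was highest in both cavities. Each narrow pool lay above the wide pool of its number, by 0.20, 0.11 and 0.09, although the groups overlapped. The difference was 0.13 ± 0.12 without a block (limma, unadjusted p = 0.314) and 0.13 ± 0.04 with the block (unadjusted p = 0.0143, adjusted p = 0.674). Without narrow 1, but with wide 1 kept, the unblocked difference was 0.001. On the arrays numbered 2 and 3 alone the unblocked Frzb difference was 0.101 (limma, unadjusted p = 0.125).

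The block bears on Frzb and Sfrp2 more than on most genes. Its standard error was 3.20 times smaller than the unblocked one for Frzb and 2.28 times smaller for Sfrp2, ratios above those of 99.8% and 98.3% of genes, where the median gene had 1.22. For the other 8 antagonists this ratio was between 1.14 and 1.55. With the block, 2 of the 10 antagonists were higher in narrow pools at an unadjusted p under 0.05, Sfrp1 and Frzb, and 1 was lower, Dkk4, while 3.54% of all genes were higher and 3.72% lower at that level. By limma with the block, 0 antagonists and 0 genes (0%) passed after adjustment.

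**Figure D2:**
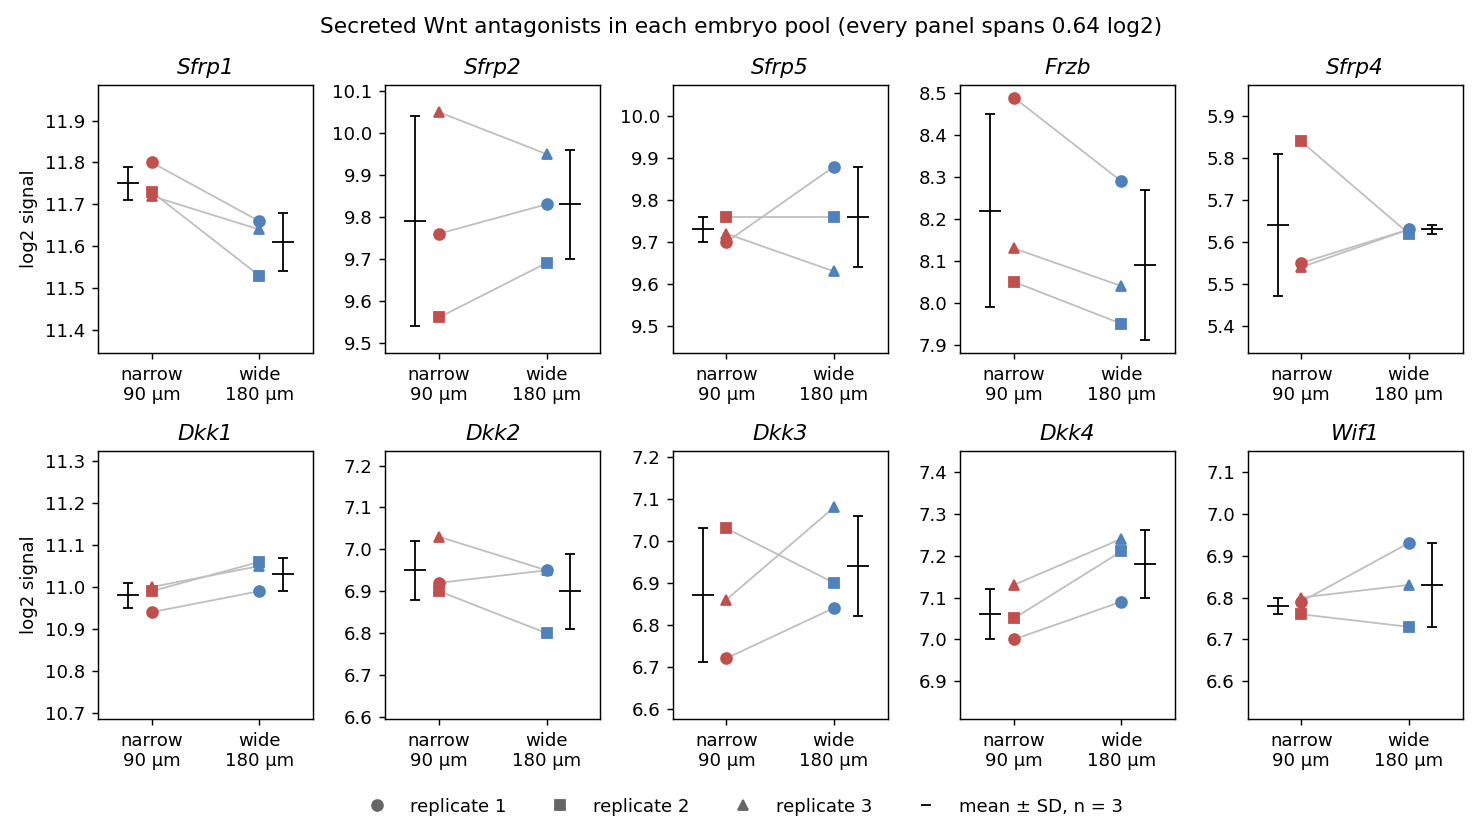
Log2 signal (vertical axis) of each antagonist in narrow pools (left) and wide pools (right). Marker shapes stand for replicate numbers, grey lines join pools of 1 number, black bars give mean ± SD (n = 3), and every panel spans the same log2 height. Sfrp1 separates the cavities, whereas Frzb is highest in both pools numbered 1 and Sfrp2 in both pools numbered 3.

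The 3 genes with the pattern most like that of Frzb over the 6 arrays, by Pearson correlation among 6508 genes with a range of at least 0.2, were Zfp35 (0.992), Tbc1d7 (0.990) and Frmd4b (0.987). For Sfrp2 they were Nell2 (0.994), Ccdc169 (0.991) and Efhc2 (0.984). Tbc1d7 had 9.64, 9.18 and 9.24 in narrow pools, against 9.48, 8.98 and 9.10 in wide pools, again highest in number 1. Nell2 had 7.23, 7.05 and 7.42 in narrow pools, against 7.24, 7.15 and 7.34 in wide pools, again highest in number 3. These values describe 6 arrays, and so many candidates yield high correlations in so few arrays.

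Of the dimmer genes, Dkk4, which inhibits Lrp6 much as Dkk1 does, had 7.00, 7.05 and 7.13 in narrow pools, against 7.09, 7.21 and 7.24 in wide pools. Each narrow pool lay below the wide pool of its number, by 0.09, 0.17 and 0.11, and the groups overlapped between narrow 3 and wide 1. The difference was -0.12 ± 0.06 without a block (limma, unadjusted p = 0.0607) and -0.12 ± 0.04 with it (unadjusted p = 0.0154, adjusted p = 0.674). Its signal was close to that of dim features, which limits what a difference of this size says about RNA.

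Dkk2, which can act for or against Wnt signals depending on Kremen, had 6.92, 6.90 and 7.03 in narrow pools, against 6.95, 6.80 and 6.95 in wide pools. Dkk3, a divergent family member, had 6.72, 7.03 and 6.86 in narrow pools, against 6.84, 6.90 and 7.08 in wide pools. The groups overlapped for both, and the differences were 0.05 ± 0.06 for Dkk2 and -0.07 ± 0.09 for Dkk3. Wif1, which binds Wnt ligands through its WIF domain, had 6.79, 6.76 and 6.80 in narrow pools, against 6.93, 6.73 and 6.83 in wide pools. Narrow pools lay within the range of wide ones for Wif1 (difference -0.05 ± 0.06, unadjusted p = 0.437). Sfrp4, at the level of dim features, had 5.55, 5.84 and 5.54 in narrow pools, against 5.63, 5.62 and 5.63 in wide pools (difference 0.015 ± 0.078, unadjusted p = 0.854), and narrow 2 stood above all other pools.

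**Figure D3:**
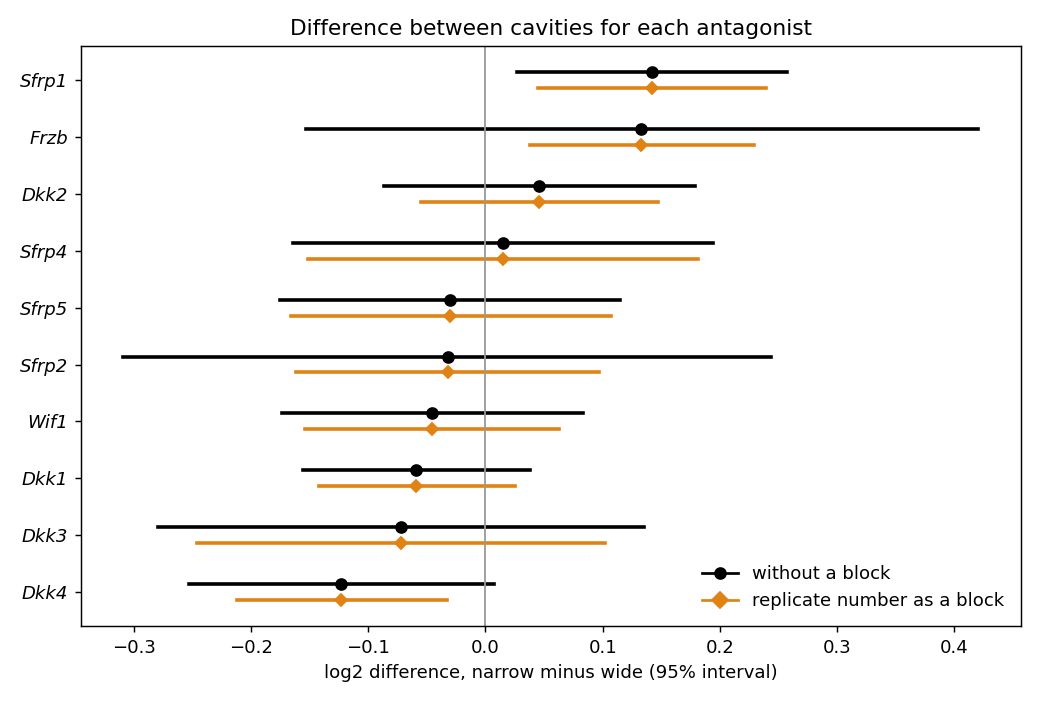
Log2 difference, narrow minus wide (horizontal axis), of each antagonist with its 95% interval from limma, without a block (black circles) and with pools blocked by replicate number (orange diamonds). Without the block the interval of Sfrp1 excludes 0, and with it those of Sfrp1, Frzb and Dkk4 do so before any adjustment.

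Of the 10 genes, 6 had an upstream sequence in the RefSeq table used, Dkk1, Dkk2, Sfrp2, Sfrp5, Frzb and Wif1, and the 250 bases before the start that this table gives were searched on both strands for CTTTGA, the core bound by TCF and LEF factors. The motifs were chosen after the sequences were seen, this one because Dkk1 is itself known as a Wnt target. For Sfrp2 and Dkk2 that start lies inside the gene's full RefSeq span, so all 250 bases of the Sfrp2 window and 26 of the Dkk2 window fall within the gene. CTTTGA occurred 2 times before Dkk1 and 1 time before Frzb, with no match in the other 4, and 13.8% of 32851 such windows of mouse genes held it. The Dkk1 matches began 174 and 117 bases before that start and did not overlap, and the Frzb match began 95 bases before it. TAATCC, a motif bound by Otx2, a factor of the visceral endoderm, occurred 1 time in the Sfrp2 window, inside the gene, and not in the other 5, with 6.25% of windows holding it. The Dkk1 and Frzb windows are shown because they carry the core, with its letters in capitals (TCAAAG is the core on the opposite strand), from GRCm38.p6, Dkk1 at chr19:30549497-30549746 and Frzb at chr2:80447397-80447646, both on the minus strand and written 5′ to 3′ along the gene.
Dkk1: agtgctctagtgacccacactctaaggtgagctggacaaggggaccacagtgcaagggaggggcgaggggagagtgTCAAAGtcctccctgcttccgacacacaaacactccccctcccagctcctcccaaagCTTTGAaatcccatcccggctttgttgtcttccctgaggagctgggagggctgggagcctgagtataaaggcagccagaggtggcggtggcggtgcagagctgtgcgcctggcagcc
Frzb: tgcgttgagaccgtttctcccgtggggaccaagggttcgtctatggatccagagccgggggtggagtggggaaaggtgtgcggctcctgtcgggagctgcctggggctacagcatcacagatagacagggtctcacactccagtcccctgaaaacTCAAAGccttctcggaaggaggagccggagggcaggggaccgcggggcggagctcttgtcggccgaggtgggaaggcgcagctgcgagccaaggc
A match describes letters only, and binding was not measured.

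Genes on which the antagonists act were measured on the same arrays. Over 84 other genes of the Wnt pathway in 8 lists by role, 5 were higher and 1 was lower in narrow pools at an unadjusted p under 0.05, where 1.68% of all genes were higher and 1.72% lower, and 0 passed after adjustment by limma over all genes. With pools blocked by replicate number, 8 were higher and 2 lower at that level, beside 3.54% and 3.72% of all genes. Of the 5 higher genes, Cer1, Fzd5 and Fzd8 are also in the list of distal visceral endoderm markers above and are no separate observation. The lists were chosen with results of these data known. Tcf7 and T had no feature that names them alone.

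Of 15 receptors and co-receptors, 3 were higher at that level, the Frizzled receptors Fzd8 (0.33 ± 0.08) and Fzd5 (0.32 ± 0.07) and the receptor tyrosine kinase-like Ror1 (0.155 ± 0.055, unadjusted p = 0.0233), with a median of 0.029 over the list. Ror1 had 9.43, 9.52 and 9.46 in narrow pools, against 9.26, 9.26 and 9.42 in wide pools, and the groups did not overlap. The direct partners of Dickkopf proteins showed small differences. Lrp6 had 0.03 ± 0.04, Lrp5 -0.01 ± 0.06, Kremen1 -0.006 ± 0.064 and Kremen2 -0.007 ± 0.059. Kremen1 signals were 9.85, 9.96 and 10.06 in narrow pools, against 9.89, 9.97 and 10.04 in wide pools, ordered alike by replicate number in both cavities.

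Among 19 Wnt ligands 0 reached an unadjusted p under 0.05, with 9 positive and 10 negative differences and a median of -0.002. The smallest p was that of Wnt6 (0.11 ± 0.05, unadjusted p = 0.0629). With the block, Wnt6 was higher (unadjusted p = 0.0431) and Wnt4 lower (-0.10, unadjusted p = 0.0315) at that level. Of 11 genes listed as other inhibitors at the cell surface, 1 was higher, Cer1, which binds Nodal and BMP ligands, and the median was 0.016. Among 7 R-spondins and their receptors 1 was higher: Rspo3, which raises Wnt signalling by keeping Frizzled receptors on the cell surface, had 8.55, 8.55 and 8.40 in narrow pools, against 8.38, 8.17 and 8.25 in wide pools. All its narrow pools lay above all wide pools (difference 0.23 ± 0.07, limma unadjusted p = 0.00904, adjusted p = 1.00).

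Of 17 measured signal transducers 0 reached that level, with a median of 0.006, Tcf7l2, a DNA-binding partner of β-catenin, coming closest (0.095 ± 0.053, unadjusted p = 0.111). Of the 2 genes of Wnt secretion neither did, Wls having 0.06 ± 0.05. Among 11 measured target genes 1 was lower, Mixl1, a factor of the primitive streak (-0.14 ± 0.04, unadjusted p = 0.00519), 0 were higher, and the median was 0.003. With the block, Tnfrsf19, a receptor of the TNF family (0.12, unadjusted p = 0.0204), and the cyclin gene Ccnd1 (0.13, unadjusted p = 0.0486) were higher at that level as well.

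**Figure D4:**
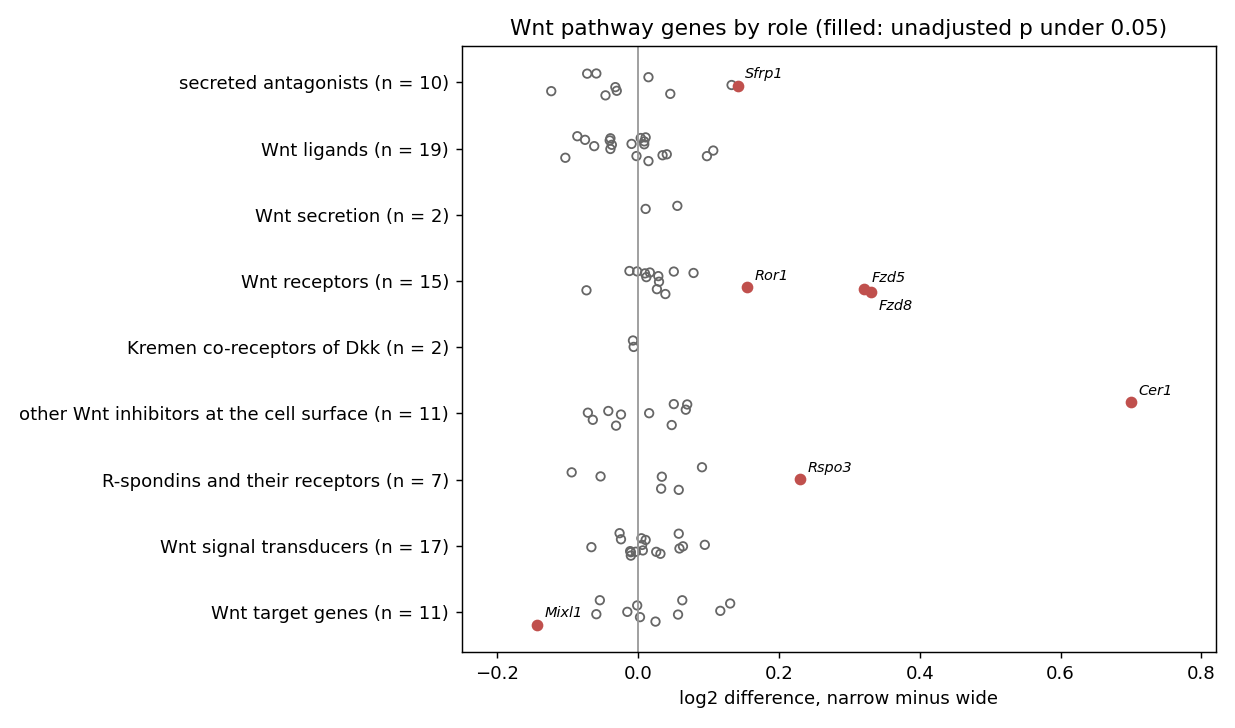
Log2 difference, narrow minus wide (horizontal axis), of the 10 antagonists and of Wnt pathway genes grouped by role, 1 point per gene with random vertical scatter. Filled and named points have an unadjusted p under 0.05 by limma, and none passed after adjustment. Points of most lists centre near 0, and Cer1 lies farthest out at 0.70.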

How the data were processed

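RNA of 6 embryo pools was hybridised to 1-colour arrays, per the labels' protocols. The authors deposited 1 log2 signal per array feature and sample. That scale was read from the values. Software, summarization, normalization and build: not given in the sources used here. Equal distributions hide any change in RNA content per embryo, and precision is limited by the number of arrays.

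Of 28853 features, 21789 name 1 gene, 1621 several and 5443 none in the platform annotation. For 999 genes with several features the one with the highest mean was used, giving 19938 genes with no filter on signal. Differences (narrow minus wide, from unrounded values) were tested with lmFit and eBayes of limma 3.58.1 in R 4.3.3, two-sided, with all arrays and without covariates, adjusted by Benjamini-Hochberg over all genes, threshold 0.05. The fit was tested on simulated data with independent noise and no effect of the replicate number. That test therefore does not cover the shifts by replicate number seen in these arrays. The design text calls the samples biological replicates, so p-values measure the spread between pools.

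Deviations from the group means correlated at 0.516, 0.176 and 0.272 between arrays numbered 1, 2 and 3. All exceed 0.1, and same-numbered pools were therefore paired in the results given above as blocked. The main limma test and the permutation test ignored this pairing. Over all genes the median SE was 0.0532 in the main test and 0.0403 with pairing. The labels do not say what the numbers stand for, and narrow 2 was as close to wide 3 (0.178) as to wide 2 (0.176). Within a cavity the 3 deviations of a gene cancel out, so the correlations of same-numbered arrays are not independent. Likeness of the arrays numbered 1 can by itself make those of numbers 2 and 3 positive. The correlations therefore do not show that numbers 2 and 3 mark pairs.

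The members, lists and tests were chosen with earlier results of these data known. Named were all 10 antagonists; from each pathway list up to 4 genes with unadjusted p under 0.05, or otherwise the 1 with the smallest p; bright markers; and for the 2 antagonists with the widest range the 3 genes of most similar pattern. Lrp5, Lrp6, Kremen1 and Kremen2 were named as partners of Dickkopf proteins. Wnt4, Tnfrsf19, Ccnd1, Trf, Esrrb, Bmp4 and the distal visceral endoderm markers were named singly. All of these were named after their values were seen. Upstream sequences are from RefSeq (GRCm38.p6).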

Additional observations from a re-analysis of the deposited data

How the results depend on the processing

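By limma 0 antagonists and 0 genes passed after adjustment under each alternative run. With the replicate block, antagonists at an unadjusted p under 0.05 numbered 3 in place of 1, all genes 1446 in place of 678 and Wnt pathway genes 10 in place of 6, and no adjusted call changed. On the 4 arrays numbered 2 and 3 alone, 2 antagonists reached that level (Sfrp1 and Dkk4), 4 of 10 had groups without overlap, beside 33.3% of all genes, and the Sfrp5 difference was 0.042. With only genes above the 50th percentile of signal, hence fewer tests, 384 genes reached it. Leaving out each array gave 0 to 2 antagonists at that level (0 without narrow 1 or wide 2), 1 to 4 without overlap (beside 14.5% to 20.4% of all genes), 497 to 990 genes, and a median difference of the antagonists from -0.040 to 0.009. Of 144 differences under alternatives, 136 kept their sign and 8, none called, changed it: those of Dkk3 (0.005 without narrow 1), Sfrp2 (0.084 without narrow 2 and 0.031 without wide 3), Sfrp4 (-0.082 without narrow 2), Sfrp5 (0.031 without wide 1), Wif1 (0.004 without wide 1) and Dkk2 (-0.003 without wide 2), besides Sfrp5 above. Leaving out each array, these differences ran from -0.154 to 0.005 for Dkk3, -0.163 to 0.084 for Sfrp2, -0.082 to 0.067 for Sfrp4, -0.091 to 0.031 for Sfrp5, -0.097 to 0.004 for Wif1 and -0.003 to 0.072 for Dkk2. Where no construction shows it, the cause was not tested. Array background was not measured and limits what dim genes show, and the filters on signal left out dim antagonists.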
